A study of Mus musculus with 15 samples.

Results

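Mitosis and chromosome segregation were followed through 48 genes: the kinases and cyclins that start mitosis, the spindle checkpoint, the chromosomal passenger complex, centromere and kinetochore proteins, spindle motors, cytokinesis factors, condensin and other chromosome proteins, and the anaphase machinery. They were listed by name for their known function and matched by symbol to GENCODE mouse identifiers, and all 48 were found among 55536 annotated genes in the count table. All 48 were tested and had a mean of at least 10 CPM (counts scaled to library size), among 24262 genes tested and 8626 with that level. Poly(A) RNA came from CD8+ T cells of OT-I mice, whose transgenic T cell receptor recognises the ovalbumin peptide SIINFEKL. In 5 libraries (Ag), the cells had been transferred into C57BL/6J mice that then received the peptide with control rat IgG, and in 5 others (Ag+Costim) the peptide with agonist antibodies against CD134 (OX40) and CD137 (4-1BB), receptors that costimulate activated T cells. Both groups were taken from spleen and lymph nodes at day 4 by the labels, and part of the study's text states an earlier collection. The donors were OT-I animals without Rag1 or Rag2, so that their T cells bore the transgenic receptor, recipients were wild type, and sorting used CD8, CD45.1 and the receptor chains Vα2 and Vβ5. Mice of both sexes were used, from young animals to adults of several months by the study's methods, and the labels do not tie an age to a library. Naive libraries were not analysed here. Nothing in the labels says whether a library is 1 animal, so the tests measure the spread between these libraries only.

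To divide, a cell activates CDK1 with its B-type cyclins, condenses its chromosomes, attaches sister kinetochores to opposite spindle poles and, once the spindle checkpoint is satisfied, lets the anaphase-promoting complex (APC/C) destroy cyclin B and securin so that separase can part the sisters. Most genes of this programme are transcribed in G2 and mitosis under the MuvB complex, B-MYB and FOXM1, and are silent in resting cells. Naive CD8+ T cells rest outside the cycle, and after antigen they divide several times within days, so that the levels of these genes in a sorted population are commonly read as a measure of how many of its cells are cycling. In bulk RNA, fewer cycling cells and less RNA per cell cannot be told apart.

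The libraries of the Ag group were unlike each other in ways that touch every value below. Their totals lay between 59598556 (Ag 3) and 449401065 estimated counts, against 332290834 to 639070261 in Ag+Costim. Ag 2 and Ag 5 had a count in 21779 and 20714 genes, Ag 1, Ag 3 and Ag 4 in 48058, 51778 and 40441, and the Ag+Costim libraries in 28727 to 30340. The defining CD8 T cell markers were present in all libraries (summed CPM of 8 genes from 4494 to 8655 in Ag and from 6219 to 7262 in Ag+Costim). Summed CPM of 8 B cell markers was 139, 34.3, 369, 196 and 41.1 in Ag 1 to 5 against 31.4 to 52.6 in Ag+Costim, with all 8 fitted lower in Ag+Costim, and Pax5 was at 0 in Ag 2 and Ag 5. For 9 erythroid markers the sums were 127, 33.1, 1108, 44.7 and 15.5 against 4.54 to 41.3, with Slc4a1 at 0 in Ag 2, Ag 5 and 2 of the Ag+Costim libraries. Sums of 8 myeloid markers (125 to 305 and 202 to 295), 4 CD4 T cell markers (3.74 to 26.4 and 3.16 to 8.2) and 4 NK cell markers (25.8 to 98.6 and 54.3 to 102) overlapped between the groups. Most of the NK sum was Eomes, and the other 3 had log2 fold changes of -3.24 (Ncr1, lower without overlap), -2.30 (Klrb1c) and -3.20 (Klra8). The part of these markers in the results below was not tested. Of the 48 genes, 27 overlap another annotated gene, 19 of them one on the opposite strand, and the library kit does not mark strand, so shared reads cannot be told apart. The sequencing sheet places every library in lane 4, with fragment sizes from 356 to 384 bases in Ag and 372 to 384 in Ag+Costim.

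Costimulated cells held a high and narrow level of the mitotic genes in every library, whereas antigen-primed cells ranged from near that level to far below it. In the median over the 48 genes, Ag 1 stood at 13.1% of the Ag+Costim mean, Ag 4 at 13.5%, Ag 3 at 57.7%, Ag 5 at 88.5% and Ag 2 at 93.1%. The 5 Ag+Costim libraries stood between 90.8% and 109.7%. Together the 48 genes took 0.292%, 1.44%, 0.895%, 0.314% and 1.502% of the scaled counts in Ag 1 to 5, against 1.42% to 1.69% in Ag+Costim. Within Ag, Ag 1 and Ag 4 were the 2 lowest libraries for 47 of the 48 genes and for 40.3% of the genes at 10 CPM or more, and Ag 3 came next in 42 of the 48. For the same 47 genes they were also the lowest of all 10 libraries.

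**Figure D1:**
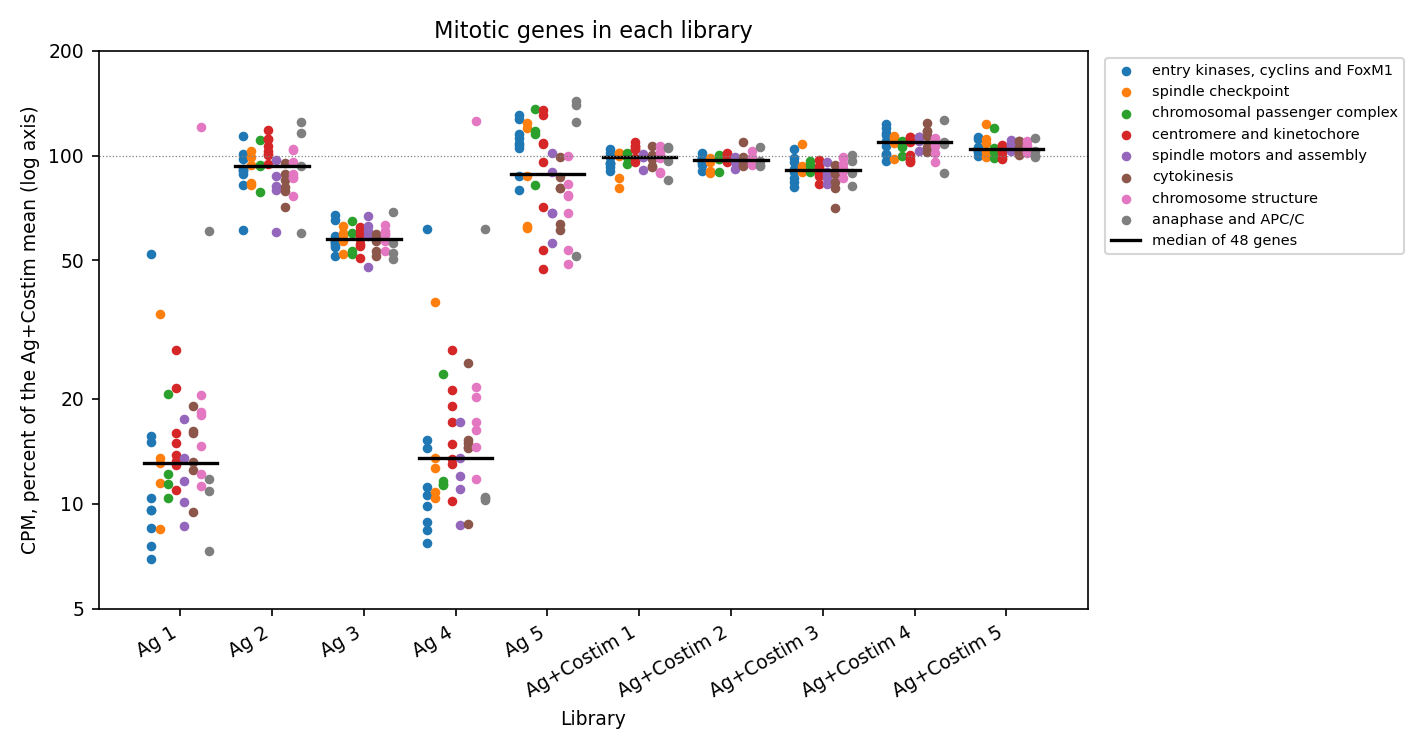
Each point is 1 of 48 mitotic genes, coloured by role, as its CPM in a library in percent of its mean over the 5 Ag+Costim libraries (log axis), and black bars are medians over the genes. Medians are 13.1% in Ag 1, 13.5% in Ag 4, 57.7% in Ag 3, 88.5% in Ag 5, 93.1% in Ag 2 and 90.8% to 109.7% in Ag+Costim, and the gene far above the others in Ag 1 and Ag 4 is Smc4.

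Within Ag the highest library exceeded the lowest by a median of 7.33-fold over the 48 genes (1.68-fold for Cdc25b to 15.5-fold for Plk1), and 38 genes reached 5-fold, as did 8.1% of the genes at 10 CPM or more. In Ag+Costim the median was 1.22-fold (1.09 to 1.76). On the log2 scale the median SD between libraries was 1.39 in Ag and 0.113 in Ag+Costim, while genes at 10 CPM or more had medians of 0.463 and 0.121. The mitotic genes were thus about as even as other expressed genes among costimulated libraries and less even among antigen-primed ones. The libraries with the lowest medians, Ag 1, Ag 4 and Ag 3, also had the raised B cell marker sums and gene numbers given above. The orders differed, as Ag 3 was highest in these but not lowest in the mitotic genes. The part of the markers and gene numbers in the result was not tested.

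The question the design asks is whether costimulation changes these levels. All 48 genes had a fitted log2 fold change above 0 (Ag+Costim over Ag), where 75.6% of the genes at 10 CPM or more did. Their median was 0.89, from 0.11 for Smc4 to 1.47 for Espl1, and the median of genes at 10 CPM or more was 0.24, a value that was 0.12, 0.00 and 0.02 when DESeq2 size factors, total counts and upper quartiles replaced TMM scaling. None of the 48 passed edgeR's quasi-likelihood test after Benjamini-Hochberg (BH) adjustment over all genes, the lowest adjusted p being 0.228. Nor did any of the 24262 genes (0%), although 4501 had an unadjusted p under 0.05. Among the 48, 12 had an unadjusted p under 0.05, all higher in Ag+Costim, a share not far above the 20.2% of genes at 10 CPM or more.

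For 12 of the 48 genes the 2 groups did not overlap, with the lowest costimulated library above the highest Ag library, which was so for 11.3% of the genes at 10 CPM or more, and none of the 48 had the reverse. They were Cdc25b, Foxm1, Ttk, Incenp, Kif11, Kif4, Tpx2, Kif20a, Top2a, Mki67, Ncapd2 and Espl1. Without Ag 2 the number was 21, and over all genes tested it went from 1086 of 24262 to 1538 of 27723. Other tests called more genes. DESeq2 called Cdc25b, Foxm1, Kif4, Anln, Mki67 and Espl1 higher (6 of 48, background 9.83%), with Foxm1 at an adjusted p of 0.0497. A limma voom fit that weights libraries by their quality called all but Smc4 (47 of 48, background 57.1%) at a median log2 fold change of 2.62. It gave Ag 2 and Ag 5, the Ag libraries nearest to Ag+Costim, weights of 0.0985 and 0.0654, against 0.508 to 1.86 for Ag 1, Ag 3 and Ag 4 and 1.68 to 3.52 for Ag+Costim.

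**Figure D2:**
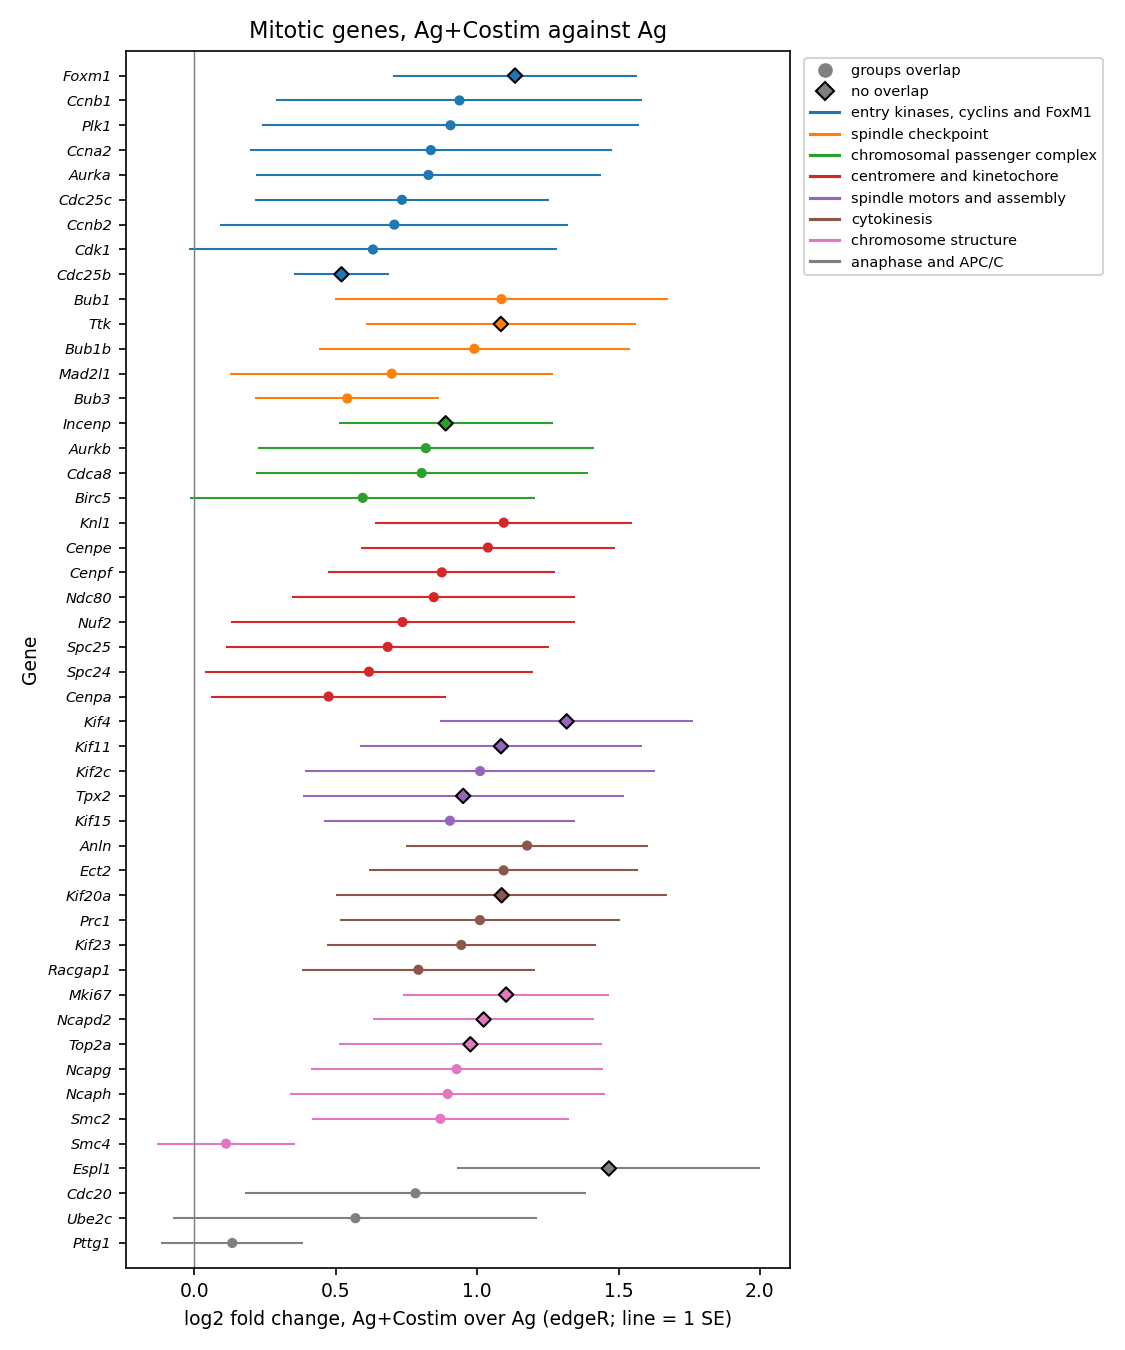
Fitted log2 fold change of Ag+Costim over Ag for each of the 48 genes (edgeR, line = 1 SE), grouped and coloured by role, with black-edged diamonds for the 12 genes whose groups did not overlap. All points lie above 0, from 0.11 for Smc4 to 1.47 for Espl1.

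The regions around the transcription starts of these genes share sequence that the choice of genes did not use. Windows from 250 bases before to 50 bases after the transcription start (RefSeq, GRCm38.p6) were at hand for 39 of the 48 genes, 42 windows in all, among 32851 for all genes. The cell cycle genes homology region (CHR, TTTGAA or TTCGAA on either strand), to which MuvB complexes bind, was present in 83.3% of the members' windows against 19.2% of all windows. A CCAAT box on either strand, the site of NF-Y, stood in 76.2% against 37.4%, and both motifs in 71.4% against 7.52%. A CHR within 50 bases of the start, on either side of it, was found in 73.8% against 5.31%. In windows such as those of Plk1, Bub1, Cenpa, Knl1 and Racgap1 it lay after the start. The letters of CHR and CCAAT do not overlap. No CHR match was found in the windows of Nuf2, Ncaph, Cenpe, Mad2l1, Pttg1, Birc5 and Ccnb1.

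Upstream stretches are shown for 6 genes that carry these motifs, from different roles, and for Birc5, which has neither, to let the arrangement be read. Each runs 5′ to 3′ along the gene from 100 bases upstream of the RefSeq start toward it, bases that GENCODE places in an exon are left off at the end, and capitals mark CHR and CCAAT matches on either strand. The stretches are Cdk1 (chr10:69352939-69353012, minus strand), Aurka (chr2:172370571-172370670, minus), Kif11 (chr19:37376282-37376381, plus), Top2a (chr11:99024190-99024289, minus), Mki67 (chr7:135716380-135716479, minus), Cdc20 (chr4:118437353-118437443, minus) and Birc5 (chr11:117849137-117849236, plus).
Cdk1: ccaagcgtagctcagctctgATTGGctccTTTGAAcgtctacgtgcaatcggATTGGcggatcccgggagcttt
Aurka: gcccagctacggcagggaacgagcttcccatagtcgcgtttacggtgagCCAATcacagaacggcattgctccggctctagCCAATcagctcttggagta
Kif11: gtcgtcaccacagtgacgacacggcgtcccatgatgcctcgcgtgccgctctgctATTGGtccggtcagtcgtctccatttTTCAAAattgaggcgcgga
Top2a: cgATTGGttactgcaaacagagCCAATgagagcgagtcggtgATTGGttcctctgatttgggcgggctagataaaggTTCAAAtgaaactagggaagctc
Mki67: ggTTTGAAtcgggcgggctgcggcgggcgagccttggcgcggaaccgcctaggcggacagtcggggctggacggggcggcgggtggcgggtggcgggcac
Cdc20: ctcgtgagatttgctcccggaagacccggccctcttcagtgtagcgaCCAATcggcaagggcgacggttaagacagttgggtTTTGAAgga
Birc5: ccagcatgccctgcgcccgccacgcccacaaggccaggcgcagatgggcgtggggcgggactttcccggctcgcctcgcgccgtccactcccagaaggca
In Kif11, Top2a and Cdc20 a CHR stands shortly before the start with a CCAAT box upstream of it, while Aurka has a pair of CCAAT boxes here and its CHR after the start.

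Among the kinases and cyclins that open mitosis, the group as a whole was lowest in Ag 1 and Ag 4. Cdk1, the catalytic core, measured 30.6, 363, 187, 31.3 and 415 CPM in Ag 1 to 5 and 318, 302, 275, 370 and 326 in Ag+Costim 1 to 5. Ag 5 held the most Cdk1 of all libraries, and the fitted log2 fold change of 0.63 ± 0.65 (SE) was smaller than its error. Ccna2, cyclin A2, stood at 58.2, 664, 384, 60.6 and 741 CPM against 643, 673, 610, 779 and 702. Ccnb1, the main mitotic cyclin, read 43.8, 511, 299, 48.7 and 609 CPM against 571, 542, 487, 693 and 599, again with Ag 2 and Ag 5 inside the range of Ag+Costim. Plk1, the polo kinase that acts at centrosomes, kinetochores and the midzone, had the widest Ag range of the 48, with 29.7, 388, 235, 33.0 and 459 CPM against 388, 388, 411, 472 and 484. Their log2 fold changes were 0.84 ± 0.64, 0.94 ± 0.65 and 0.91 ± 0.67 (SE).

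Foxm1, the transcription factor of the late cell cycle, had the highest fold change of this role and no overlap, at 20.6, 80.7, 74.0, 20.1 and 106 CPM against 122, 127, 138, 133 and 140 (log2 fold change 1.13 ± 0.43 SE, edgeR BH 0.254). Even Ag 2, at 61.1% of the Ag+Costim mean, lay well below it for Foxm1. Cdc25b, a phosphatase that activates CDK1, had the lowest change and was also without overlap. Its values of 298, 470, 374, 352 and 500 CPM against 596, 561, 524, 577 and 601 show only a shallow dip in Ag 1 and Ag 4, to 52.1% and 61.5%, and a small error (0.52 ± 0.17 SE, BH 0.228). Ccnb2, Cdc25c and Aurka, the other members, lay at 9.58% to 15.1% in Ag 1 and Ag 4 and between 91.1% and 127% in Ag 2 and Ag 5.

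The spindle checkpoint holds anaphase back until every kinetochore is attached. Bub1b, which encodes the inhibitor BUBR1, measured 42.4, 304, 222, 40.0 and 323 CPM in Ag and 318, 354, 345, 421 and 411 in Ag+Costim, so that Ag 5 just reached the lowest costimulated library. Mad2l1, the MAD2 protein of the same inhibitor, read 34.8, 264, 158, 33.7 and 332 CPM against 267, 263, 241, 299 and 264, with Ag 5 the highest of all 10. Bub1, the kinetochore kinase, had the largest fold change of the role, with 9.29, 113, 57.3, 11.4 and 68.0 CPM against 89.0, 99.6, 119, 107 and 135 (1.09 ± 0.59 SE). Ttk, the MPS1 kinase that starts checkpoint signalling, was without overlap at 9.37, 57.5, 43.4, 9.36 and 43.5 CPM against 70.2, 61.6, 63.3, 75.5 and 75.0 (1.08 ± 0.48 SE, edgeR BH 0.268). Bub3, which has further roles outside mitosis, had the smallest change, 0.54 ± 0.32 (SE). Its 170, 454, 276, 184 and 582 CPM against 494, 471, 436, 525 and 496 left Ag 1 and Ag 4 at 35.1% and 38.0% of the costimulated mean, where Bub1b and Mad2l1 stood at 10.8% to 13.1%.

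The chromosomal passenger complex corrects faulty attachments and later directs cleavage. Aurkb, its kinase, measured 36.1, 324, 185, 39.6 and 402 CPM in Ag against 354, 341, 312, 368 and 367. Birc5, or survivin, targets the complex to the centromere and was at 72.6, 659, 358, 69.3 and 813 CPM against 602, 597, 561, 634 and 586, above every costimulated library in both Ag 2 and Ag 5. Incenp, the scaffold, was the member without overlap, at 66.5, 253, 209, 76.0 and 265 CPM against 304, 289, 310, 321 and 385. Log2 fold changes were 0.82 ± 0.59, 0.60 ± 0.61 and 0.89 ± 0.38 (SE). Cdca8, or borealin, had 0.80 ± 0.59 (SE). Per kb of transcript, Birc5 had the highest level of the 48 genes, 551 CPM per kb in Ag+Costim and 365 in Ag.

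**Figure D3:**
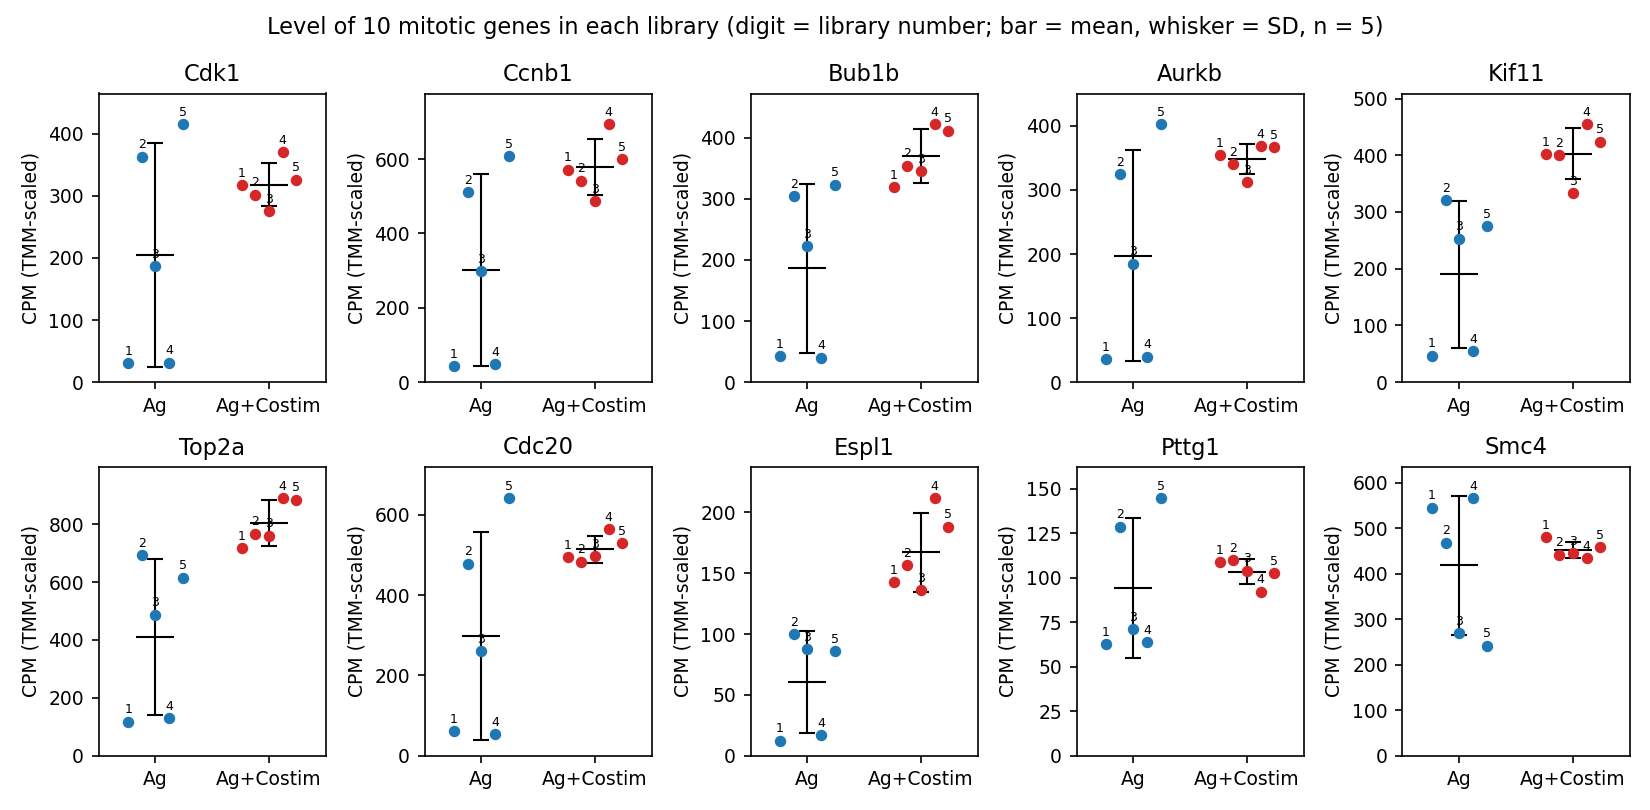
TMM-scaled CPM of 10 mitotic genes in each Ag (blue) and Ag+Costim (red) library, with library numbers, group means (bars) and SD (whiskers, n = 5 per group). In 8 of the panels Ag 1 and Ag 4 lie far below the rest, in Pttg1 they stand at 60.7% and 61.7% of the costimulated mean, and in Smc4 they are the highest.

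Of the centromere and kinetochore genes, none was without overlap. Cenpa, the histone variant that marks the centromere, had the lowest change of the role (0.47 ± 0.41 SE), with 119, 480, 268, 119 and 563 CPM in Ag against 457, 436, 419, 420 and 420. It kept 27.6% of the costimulated mean in Ag 1 and in Ag 4, and both Ag 2 and Ag 5 were above every costimulated library. Ndc80, which binds microtubules, was at 27.9, 176, 88.9, 26.0 and 167 CPM against 168, 168, 160, 195 and 182. Knl1, the platform for checkpoint proteins, had the largest change, 1.09 ± 0.45 (SE, BH 0.264), at 19.99, 137, 79.6, 24.8 and 77.8 CPM against 158, 145, 134, 140 and 148. The partners Nuf2, Spc24 and Spc25 were at 10.2% to 13.5% in Ag 1 and Ag 4 and at 106% to 135% in Ag 2 and Ag 5. Cenpe and Cenpf, both large, differed between those 2 fuller libraries, at 101% and 103% in Ag 2 but 47.3% and 71.3% in Ag 5.

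Spindle motors held 3 of the 12 genes without overlap. Kif11, the kinesin-5 that pushes the poles apart, measured 46.9, 321, 253, 54.6 and 275 CPM in Ag and 402, 400, 334, 454 and 424 in Ag+Costim. Kif4, a chromokinesin, had the second highest fold change of the 48 genes (1.32 ± 0.45 SE, edgeR BH 0.237), with 21.4, 95.7, 93.0, 19.0 and 88.7 CPM against 156, 152, 139, 175 and 170. Here Ag 2, Ag 3 and Ag 5 were close to each other and between 56.0% and 60.5% of the costimulated mean. Tpx2, which activates Aurora A on the spindle, gave 36.9, 318, 221, 40.1 and 325 CPM against 331, 334, 349, 410 and 395, a gap of only a few CPM between Ag 5 and the lowest costimulated library. Kif15 had the lowest change (0.90 ± 0.44 SE) at 27.5, 152, 105, 26.9 and 107 CPM against 155, 152, 141, 161 and 174. Kif2c, the microtubule depolymerase, was at 8.61% and 8.68% in Ag 1 and Ag 4.

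The 6 cytokinesis genes had the highest median fold change of the roles, 1.05 on the log2 scale. Kif20a (MKLP2), which carries the passenger complex to the midzone, was without overlap at 37.3, 311, 202, 34.4 and 340 CPM against 364, 370, 352, 463 and 416. Kif23 (MKLP1), a component of centralspindlin, read 33.6, 200, 112, 31.3 and 169 CPM against 223, 208, 186, 222 and 211. Its partner Racgap1 had the highest CPM and the smallest change of the role, 0.79 ± 0.41 (SE), at 143, 665, 427, 191 and 747 CPM against 754, 701, 707, 770 and 831. Anln, the anillin of the contractile ring, had the largest, 1.18 ± 0.43 (SE, BH 0.245), at 9.82, 43.1, 34.9, 9.24 and 36.9 CPM against 56.6, 66.3, 42.8, 75.3 and 61.8, with Ag 2 just above the lowest costimulated library. Anln was also the lowest of the 48 per kb, 13.2 CPM per kb in Ag+Costim and 5.85 in Ag. Prc1, which bundles the midzone, and Ect2, which activates RhoA there, were at 12.5% to 14.6% in Ag 1 and Ag 4.

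Among chromosome structure genes, Top2a, Mki67 and Ncapd2 were without overlap. Top2a, the decatenating topoisomerase, measured 118, 692, 488, 131 and 616 CPM in Ag and 718, 768, 760, 891 and 885 in Ag+Costim. Mki67, whose protein Ki-67 coats mitotic chromosomes and is the usual stain for cycling cells, was at 93.4, 402, 241, 98.3 and 222 CPM against 455, 469, 416, 463 and 468. Its levels in Ag 3 and Ag 5 were nearly equal, at 53.1% and 49.0% of the costimulated mean, although Ag 5 was the fuller library for most of the other genes. Ncapd2, of condensin I, had 79.6, 337, 279, 89.7 and 301 CPM against 397, 415, 438, 485 and 473. The log2 fold changes were 0.98 ± 0.47, 1.10 ± 0.37 and 1.02 ± 0.39 (SE), with edgeR BH of 0.278, 0.233 and 0.254.

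Smc4 (chr3:69004738-69034623), an ATPase subunit shared by both condensins, broke the pattern. It measured 545, 469, 269, 567 and 242 CPM in Ag and 481, 442, 445, 434 and 458 in Ag+Costim. Ag 1 and Ag 4, the lowest libraries for the other 47 genes, were its highest, at 121% and 125% of the costimulated mean, and Ag 3 and Ag 5 its lowest. Smc2, the subunit that pairs with Smc4, followed the common order at 18.3% and 17.1% in Ag 1 and Ag 4, as did Ncapg and Ncaph at 11.2% to 14.5%. The log2 fold change of Smc4, 0.11 ± 0.25 (SE, BH 0.783), was below 0 with total counts, upper quartiles, DESeq2 and DESeq2 size factors. Mir15b and Mir16-2 lie inside Smc4 on the same strand.

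The anaphase genes held both the highest fold change of the 48 and the second lowest. Espl1, separase, the protease that cuts cohesin, was without overlap at 12.2, 99.9, 87.5, 17.1 and 85.7 CPM in Ag against 142, 156, 136, 212 and 188 (1.47 ± 0.54 SE, edgeR BH 0.246). Pttg1 (chr11:43420250-43426251), securin, its inhibitor, was at 62.8, 129, 71.2, 63.8 and 145 CPM against 109, 110, 104, 92.2 and 103 (0.13 ± 0.25 SE, BH 0.745). Securin RNA stood at 60.7% and 61.7% of the costimulated mean in Ag 1 and Ag 4, and separase RNA at 7.33% and 10.2%. The log2 fold change of Pttg1 was below 0 with total counts and upper quartiles. Cdc20, the APC/C activator that the checkpoint inhibits, measured 60.7, 478, 260, 53.4 and 642 CPM against 495, 483, 497, 564 and 530. Ube2c, the ubiquitin-conjugating enzyme of the APC/C, had 49.0, 521, 252, 47.1 and 644 CPM against 476, 435, 399, 485 and 452. For both, Ag 5 was the highest of all libraries, and log2 fold changes were 0.78 ± 0.60 and 0.57 ± 0.64 (SE).

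Genes of neighbouring processes were read in the same way. Among genes at 10 CPM or more, 20.2% were higher in Ag+Costim at an unadjusted p under 0.05 (edgeR) and 11.3% were higher without overlap. DESeq2 called 9.83% of them higher. Of 79 further mitotic genes, all 79 had a log2 fold change above 0 (median 0.79), none passed edgeR's test, 14 had an unadjusted p under 0.05 and 16 were without overlap. Arhgap11a had the highest at 1.41 ± 0.36 (SE) and Zwint the lowest at 0.23 ± 0.25 (SE). Their medians in Ag 1 to 5 were 14.3%, 99.1%, 58.9%, 14.9% and 94.7% of the costimulated mean, close to those of the 48. The same held for 20 DNA replication genes, with 13.5%, 88.5%, 58.1%, 14.4% and 103%. Of these 2 had an unadjusted p under 0.05 and 6 were without overlap. The median log2 fold change of the 20 was 0.88, from Rfc3 at 0.59 ± 0.56 to Pola1 at 1.24 ± 0.35 (SE).

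The APC/C list held the subunits of the complex and the coactivator Fzr1. Its medians, in percent of the costimulated mean, were lowest in Ag 1 and Ag 4. They were still above those of the mitotic and DNA replication genes in these libraries. The same shares of genes at 10 CPM or more stand beside the counts below: 20.2% (unadjusted p), 11.3% (no overlap) and 9.83% (DESeq2). Over 15 genes the Ag 1 to 5 medians were 45.5%, 89.1%, 63.6%, 50.1% and 102%, the median log2 fold change was 0.55, 6 genes had an unadjusted p under 0.05 and 4 were without overlap, from Anapc13 at -0.11 ± 0.23 to Cdc27 at 0.88 ± 0.26 (SE). For 10 cohesin genes the medians were 60.3%, 89.0%, 73.4%, 71.0% and 65.0%, the median log2 fold change 0.56, 6 had an unadjusted p under 0.05, 6 were called higher by DESeq2 and 5 were without overlap, from Nipbl at -0.40 ± 0.30 to Rad21 at 1.001 ± 0.22 (SE). The 11 genes of MuvB, DREAM and B-Myb, the transcriptional regulators of this programme, had a median log2 fold change of 0.64, with 4 at an unadjusted p under 0.05 and 3 without overlap. Mybl2 had the highest at 1.02 ± 0.65 (SE), with 13.9 and 14.7 CPM in Ag 1 and Ag 4 against 168 to 235 in Ag+Costim, while E2f5 had the lowest at 0.02 ± 0.32 (SE). Of the promoter windows in each list, 55.4% held a CHR for the further mitotic genes, 26.3% for DNA replication, 11.8% for the APC/C, 25.0% for cohesin and 40.0% for the MuvB list, below the members' 83.3%.

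A second feature of the values was transcript length. In Ag 5, short members stood above the costimulated mean and long ones below it. With the 48 genes split into 3 sets of 16 by the mean length of their transcripts, weighted by counts (short, under 2444 bases, long, over 4017, and middle), Ag 5 was at 116%, 86.9% and 68.3% of the costimulated mean. Ube2c and Pttg1 reached 143% and 140% there, whereas Cenpe, Mki67, Espl1 and Knl1 were at 47.3%, 49.0%, 51.3% and 53.6%. Spearman's rho between length and the Ag 5 ratio was -0.85 over the 48 genes and -0.71 over the genes at 10 CPM or more. In Ag 2 it was -0.41 and -0.44. In Ag 1 and Ag 4 it was 0.21 and 0.28 over the 48, with medians for short, middle and long genes of 11.6%, 12.8% and 15.3% in Ag 1 and 11.4%, 14.0% and 16.7% in Ag 4. These are descriptions across genes that share their libraries. The pattern is not particular to mitotic genes, and Cdk1, at 130% in Ag 5 with transcripts of 4328 bases, was an exception to it.

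**Figure D4:**
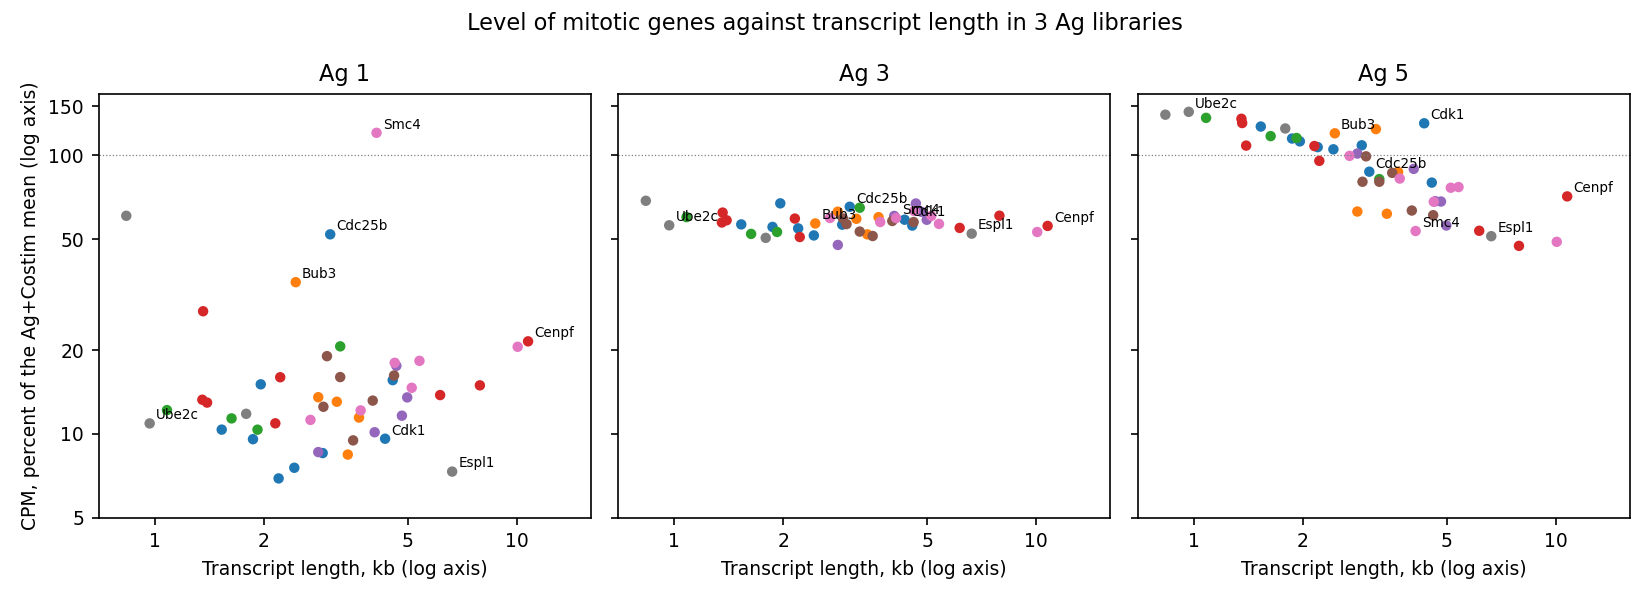
CPM in percent of the Ag+Costim mean (log axis) against the count-weighted transcript length (kb, log axis) for the 48 genes in Ag 1, Ag 3 and Ag 5, coloured by role. In Ag 5 the values fall with length (Spearman's rho -0.85), from 143% for Ube2c to 47.3% for Cenpe, in Ag 3 they lie between 47.7% and 68.7% at all lengths, and in Ag 1 they lie between 6.93% and 21.5% except for Smc4, Pttg1, Cdc25b, Bub3 and Cenpa above.

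The count of genes without overlap was also taken free of this trend. With each library's trend on length removed, an alternative chosen after the data had been seen, 6 of the 48 genes stayed without overlap (Ttk, Incenp, Kif4, Mki67, Ncapd2 and Espl1), where 11.8% of the genes at 10 CPM or more did. All 48 log2 fold changes remained above 0 with a median of 0.89, and none passed edgeR's test. The trend removed from the 48 genes lay between -0.14 and 0.66 in Ag 1 and between -0.26 and 0.65 in Ag 4 on the log2 scale, beside median log2 ratios to the costimulated mean of -2.93 and -2.88 there. In Ag 5 it lay between -0.78 and 0.49, beside a median log2 ratio of -0.18.

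Transcript usage was tested because the series was sequenced for splicing. Of the 48 genes, 46 had at least a pair of transcripts to compare (not Ccnb2 and Cenpe), and none passed edgeR's diffSpliceDGE at a gene-level BH under 0.05 with a share moving by more than 10 percentage points. Over all genes 31 of 10441 did (0.297%), and 670 had an unadjusted p under 0.05. Of the members 1 had, Kif20a, and limma's diffSplice called none of the 48 either.

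Kif20a came nearest (BH 0.0914). Kif20a-201, a protein-coding transcript, held 11.7%, 31.7%, 19.9%, 14.3% and 54.0% of the gene's counts in Ag 1 to 5 and 6.02%, 4.14%, 2.75%, 4.64% and 4.18% in Ag+Costim. The groups did not overlap (26.3% ± 17.3 against 4.35% ± 1.18, SD, n = 5), and the gene passed the test when Ag 1 or Ag 4 was left out (BH 0.0187 and 0.00384). It did not with any other library left out. The lowest BH of any of the 48 genes was then 0.0303 without Ag 2, where none of them passed both thresholds. This lowest BH was 0.0916 without Ag 3, 0.241 without Ag 5 and 0.193 to 0.412 without 1 of the Ag+Costim libraries. Nuf2-201 held 30.7%, 36.8%, 48.6%, 55.7% and 81.3% in Ag and 63.6%, 66.4%, 81.5%, 76.7% and 74.7% in Ag+Costim, a difference of 21.9 percentage points with overlap and a BH of 0.979. In Smc4, the transcript annotated for nonsense-mediated decay, Smc4-207, took 37.9% to 52.9% in Ag and 38.9% to 43.7% in 4 costimulated libraries, but 13.7% in Ag+Costim 5, where Smc4-202, at 0 in every other library, took 38.4%.

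**Figure D5:**
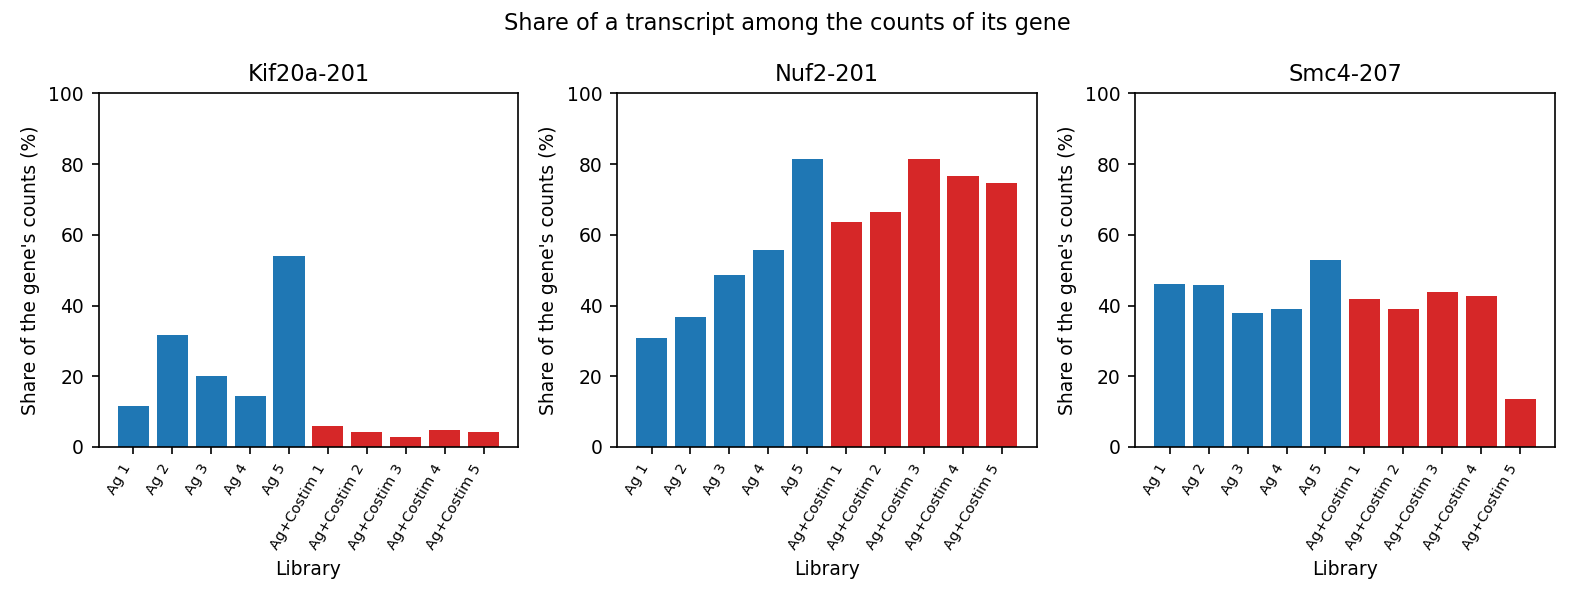
Share of 3 transcripts among the counts of their gene (%) in each Ag (blue) and Ag+Costim (red) library. Kif20a-201 is at 11.7% to 54.0% in Ag and at 2.75% to 6.02% in Ag+Costim, Nuf2-201 overlaps between the groups, and Smc4-207 is low in Ag+Costim 5 at 13.7%.

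The table of splicing events gives 1 percent-spliced-in value (PSI, as a fraction) per group, so no spread between libraries stands behind these numbers. It held 829 events in 47 of the 48 genes. Of these, 15 events in 8 genes moved by more than 0.05 between the groups (1.81%), where 11.9% of all 138940 events did. The largest was in Ttk, where 2 tandem 3′ ends lie 3 bases apart. The shorter end (chr9:83871985-83872386) was at 0.803 in Ag and 0.169 in Ag+Costim, and the end with the 3 further bases at 0.197 and 0.831. The transcript counts showed no such shift. The largest change in share of any Ttk transcript compared was -1.25 percentage points (Ag+Costim minus Ag). Counts derived from coverage may not separate ends 3 bases apart, so they cannot decide whether the ends shifted.

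Foxm1 and Ccnb1 also had tandem ends with different values. The distal end of Foxm1 (chr6:128373967-128376146, part of the 3′ untranslated region) went from 0.979 to 0.841, and that of Ccnb1 (chr13:100778732-100779677) from 0.871 to 0.9896. By transcript counts, the largest changes in share among the transcripts compared were -0.38 percentage points for Foxm1 and -0.60 for Ccnb1. The first of a pair of tandem starts of Aurkb went from 0.587 to 0.485, an acceptor of Tpx2 went from 0.704 to 0.588, and a donor of Smc2 from 0.478 to 0.547. In Smc4, 4 core exons between chr3:69019175 and chr3:69028597, exons of Smc4-201, Smc4-202 and Smc4-207, were at 0.998 to 0.999 in Ag and at 0.892 to 0.930 in Ag+Costim. By transcript counts all 4 stood at 100% in every library. For those starting at 69027819 and 69028445 there was no transcript without the exon to count, so that value was fixed.

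An alternative first exon of Kif20a (chr18:34625033-34625263) was included at 0.413 among the Ag libraries and at 0.643 among the costimulated ones. The annotation places exactly this exon in Kif20a-201, whose share by transcript counts was lower in all 5 costimulated libraries. The PSI values and the transcript counts therefore moved in opposite directions here, and with 1 PSI value a group this was not tested.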

How the data were processed

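Poly(A) RNA of sorted CD8+ T cells was made into SMART-Seq v4 and Nextera XT libraries and sequenced as read pairs, and the authors aligned the reads to mm10 with HISAT2 2.1.0, sorted them with SAMtools 1.9 and derived estimated counts per gene and transcript with StringTie 2.1.0, deposited as whole numbers per library. StringTie derives these from coverage, so they are not tallies of molecules. The deposited fractions of splicing events (percent spliced in) came from Whippet, for which the authors combined the libraries of a group. Columns with the authors' own difference and its probability were not used, so the planned probability threshold of 0.9 was replaced by a PSI difference over 0.05. Of 81881 rows in the gene table, 55536 had a GENCODE M21 identifier, and the other 26345, with 0.0603% of the counts, were left out.

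The 5 Ag and 5 Ag+Costim libraries were compared with edgeR 4.0.16 (R 4.3.3, filterByExpr, TMM, robust quasi-likelihood fit, Benjamini-Hochberg over all genes tested, threshold 0.05, no covariate), and CPM are TMM-scaled. Transcript usage was tested with diffSpliceDGE. DESeq2 1.42.0, limma 3.58.1, other scalings and filters, a replicate block and the omission of each library were the alternatives. Scripts were tested on simulated data, where edgeR recovered 185 of 200 changed genes among 23353 for Ag+Costim against Ag. The simulation gave both groups the same spread between libraries, unlike these data. It therefore checks that the scripts work and does not measure the power of this comparison. Motifs and promoter windows were read from RefSeq (GRCm38.p6), and positions of genes and exons from GENCODE M21. The 48 genes, their roles and the other lists were chosen with earlier results of these data known. Values per library are given for 20 fixed genes, for the highest and lowest fold change of each role, and for each gene without overlap or called (33 in all), and the highest and lowest gene of each further list is named. The transcripts and events described were chosen after their values were seen.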

Additional observations from a re-analysis of the deposited data

Results flagged for a closer look

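Libraries that stood apart from the other 4 of their group by Dixon's criterion were sought among the CPM of the 48 genes, the summed CPM of each role and the shares of 4 transcripts, 120 groups of 5 libraries in all. The criterion was met in 5 groups, and chance alone meets it in about 1 of 20. Cdc25c, a CDK1-activating phosphatase, was highest in Ag+Costim 5 at 65.5 CPM. Spc24, a kinetochore subunit, was highest in Ag+Costim 4 at 162 CPM, and Mki67 was lowest in Ag+Costim 3 at 416 CPM. In Ag+Costim 5 the share of Smc4-207 was the lowest of its group at 13.7% and that of Smc4-202 the highest at 38.4%. All 5 were in the Ag+Costim group. The criterion seeks 1 library apart from the other 4, so it cannot flag Ag 1 and Ag 4 where they lie low together.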

How the results depend on the processing

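The direction of the named genes held in 585 of 594 values under the alternatives. The exceptions were Smc4, at -0.034 with DESeq2, -0.16 with limma voom and quality weights, -0.043 with DESeq2 size factors, -0.23 with total counts, -0.15 with upper quartiles and -0.016 to 0.25 when 1 library was left out, and Pttg1, at -0.052 with total counts and -0.066 with upper quartiles. DESeq2 called 8064 genes (49567 tested, 931 of the 8064 higher in Ag+Costim) and 6 of the 48, all higher. Limma voom called 12311 genes (6140 higher) and 47 of the 48, all higher, and the 48 had a median log2 fold change of 2.62. With the length trend removed, edgeR called 2 genes. In the other edgeR fits, the median over the 48 was 0.66 to 1.34. Unadjusted p under 0.05 was reached by 12 genes of the 48 (4501 of 24262 genes, 1915 of them higher in Ag+Costim). With the length trend removed it was reached by 5 (4815 of 24262, 2464 higher), and with no filter on low counts by 41 (17764 of 54224, 3040 higher). The members so counted were all higher. The number without overlap was 6 with upper quartiles (360 of 24262 genes tested) and 6 with the length trend removed (1285 of 24262). With 1 library left out it was 11 to 21. It was 21 without Ag 2 (1538 of 27723 genes), 18 without Ag 5 (1904 of 27169) and 18 without Ag+Costim 3 (1302 of 26721). These backgrounds are over all genes tested, where the main fit had 1086 of 24262. Over genes at 10 CPM or more the main share was higher, 11.3%. That share was not taken with upper quartiles or with 1 library left out. Usage calls numbered 145 genes with limma diffSplice, 19 with a minimum of 50 counts in 5 libraries and 33 to 93 with 1 library left out, with 0 to 1 of the 48 among the last. PSI differences over 0.1 numbered 11 of 829 events (1.33%), against 5.87% of all 138940 events. A probability over 0.95 was not run. Where these values moved, the cause was not tested. In Ag 3, the shallowest library, low levels are the least precise.

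With the replicate number as a block, edgeR called 0 genes, the 48 had a median log2 fold change of 1.34, 24 had an unadjusted p under 0.05 (2419 of 24262 genes, 1959 of them higher), the lowest usage BH of any of the 48 was 0.412, and 30 genes were called for usage. The values were also checked for a pairing of the libraries by number. Same-numbered libraries deviated from their group means with correlations of 0.21, 0.01, -0.18, -0.41 and 0.05, and no Ag library correlated best with its own number. With Ag libraries so unlike each other, this check cannot decide whether the numbers pair them.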
